A study of Mus musculus with 4 samples.

Results

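Genomic imprinting restricts the expression of a small set of mouse genes to the copy inherited from 1 parent. Of 47 such genes listed for the present description, 46 were located by symbol in GENCODE release M1 on mm9, among 22380 annotated protein-coding genes, and they form 19 domains of neighbouring genes. The symbol Kcnq1ot1 was absent and that noncoding RNA was dropped, so its domain is represented by its 7 other genes. The genes are 44 protein-coding genes and 2 noncoding ones, H19 and Meg3. Their positions were compared with the regions recovered with Wapal, the cohesin release factor, in mouse ESCs.

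The ChIP-seq samples were 2 independently derived clones of ESCs expressing Flag/Bio-tagged Wapal (FB Wapal) together with the biotin ligase BirA, 1 ESC line expressing BirA alone as the negative control, and 1 input of sheared genomic DNA that the labels assign to cells with tagged Wapal. All were grown under standard ESC conditions without further treatment. The tagged protein was expressed from a transgene beside endogenous Wapal, and each line is a single clone. The authors deposited a single list of 8497 regions that covers the pair of FB Wapal clones, and another with 266 regions for BirA. A region sharing at least 1 bp with a BirA region was removed, and the remaining 8323 regions are called Wapal-binding sites here. The authors' own subtraction left a slightly smaller number of sites, and the reason for the difference is not known. No BirA region and none of the 174 removed regions lay within 100 kb of the transcription start site (TSS, the 5′ end of the gene record) of an imprinted gene, whereas 743 protein-coding genes (3.32%) had a BirA region at that distance. The nearest was 143 kb from Zrsr1. Each site has a position and a MACS score, which is 10 times the negative log10 of its p-value against input. The lists hold no read counts, and with 1 list for both clones no spread between replicates could be given. Shares are printed with exact (Clopper-Pearson) 95% intervals, which cover counting error only and treat genes or sites as independent, although neighbouring genes share sites.

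Imprinted genes lie in clusters, and each cluster is governed by an imprinting control region that carries DNA methylation on the copy from only 1 parent. At H19 and Igf2, the zinc-finger protein CTCF is known to bind the unmethylated maternal control region and to separate Igf2 from enhancers that lie beyond H19. In other clusters a long noncoding RNA, such as Kcnq1ot1 or Airn, silences its neighbours on the paternal copy. Cohesin holds DNA in loops and accumulates where CTCF is bound, and Wapal releases cohesin from chromatin.

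Since most Wapal-binding sites hold a match to the CTCF core motif, the sequences below show the match in the highest-scoring site of each domain. Of the 19 domains, 12 are shown that had a match with 0 or 1 mismatches in that site, and one further domain, that of Impact, is not shown. Each line gives mm9 bases, 5′ to 3′ on the strand named, with the 12 bases of the match in capitals and 15 bases on each side.
Grb10 intron, chr11:11873595-11873636, reverse strand: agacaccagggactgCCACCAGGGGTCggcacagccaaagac
upstream of Usp29, chr7:6893631-6893672, forward strand: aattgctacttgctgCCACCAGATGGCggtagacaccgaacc
upstream of Copg2, chr6:30932845-30932886, reverse strand: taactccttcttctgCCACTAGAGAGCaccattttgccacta
between Magel2 and Mkrn3, chr7:69545160-69545201, reverse strand: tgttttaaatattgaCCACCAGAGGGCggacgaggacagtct
downstream of Dio3, chr12:111611779-111611820, reverse strand: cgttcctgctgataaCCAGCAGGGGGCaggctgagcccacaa
Plg intron, beyond Slc22a3, chr17:12609260-12609301, forward strand: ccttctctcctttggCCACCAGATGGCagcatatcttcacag
downstream of Nnat, chr2:157461565-157461606, forward strand: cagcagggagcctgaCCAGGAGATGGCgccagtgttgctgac
upstream of Plagl1, chr10:12717100-12717141, reverse strand: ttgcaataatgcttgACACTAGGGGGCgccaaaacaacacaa
Kcnk9 intron, chr15:72347646-72347687, reverse strand: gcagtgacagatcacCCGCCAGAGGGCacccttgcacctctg
Inpp5f intron, chr7:135833867-135833908, reverse strand: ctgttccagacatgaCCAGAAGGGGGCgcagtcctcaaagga
Commd1 intron, chr11:22857301-22857342, reverse strand: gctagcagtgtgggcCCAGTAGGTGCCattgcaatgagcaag
upstream of Herc3, chr6:58720952-58720993, reverse strand: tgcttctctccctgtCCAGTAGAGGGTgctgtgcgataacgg
The matches upstream of Usp29, between Magel2 and Mkrn3, downstream of Dio3 and in the Plg intron had 0 mismatches, and the other 8 had 1. In the Igf2-H19, Kcnq1ot1, Peg10-Sgce, Gnas, Rasgrf1 and H13 domains the closest match in the highest-scoring site had 2 mismatches.

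Most imprinted genes had a Wapal-binding site in their surroundings, and none had one at the annotated start of the gene. At least 1 Wapal-binding site lay within 100 kb of the TSS of 32 of the 46 genes, or 69.6% (95% interval 54.2 to 82.3%). Among all protein-coding genes the share was 60.0%, which lies inside that interval, and it was 61.5% for those on autosomes, where all the imprinted genes lie. Every one of the 19 domains had such a site for at least 1 of its genes. A domain of several genes covers more sequence than 1 gene, and no share for other groups of neighbouring genes was computed. In contrast, within 2 kb of the TSS a site was found for 0 of the 46 (upper bound 7.71%), where 2.03% of protein-coding genes had one. At this share the 46 genes are too few to show a difference.

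The same comparison was made at other distances. A site lay within 10 kb of the TSS for 7 imprinted genes, or 15.2% (95% interval 6.34 to 28.9%), beside 9.12% of protein-coding genes. Within 20 kb there were 11 genes, or 23.9% beside 18.4%, and within 50 kb there were 21, or 45.7% beside 38.7%. Each background share lay inside the interval of the imprinted genes, so none of these differences exceeded counting error when distance was taken to the start of the gene record. Measured to any annotated transcript, the count within 10 kb was 14 genes (30.4%, 95% interval 17.7 to 45.8%), and the background of 12.3% lay below that interval. This setting was chosen after values were seen. The genes it added, Kcnq1, Grb10, Ddc, Ppp1r9a, H13, Inpp5f and Commd1, all held a site in the gene, and gene length was not taken into account. For H13 and Commd1 the nearest transcript was annotated as a retained intron, and for Ddc as noncoding.

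The number of sites around each gene was counted next. Exactly 2 sites lay within 100 kb of 16 imprinted genes, or 34.8% (95% interval 21.4 to 50.2%), beside 17.9% of protein-coding genes. Exactly 1 site was found for 13 genes (28.3% beside 33.0%) and 3 or more for 3 genes, Ddc, Plagl1 and H13 (6.52% beside 9.07%). Neighbouring genes share these sites. Of the 16 genes with exactly 2 sites, 7 had the same pair as a neighbour (Peg10 and Sgce, Ndn with Magel2 and Mkrn3, and Zrsr1 and Commd1), which left 12 distinct pairs, so the interval for that share is too narrow. The 54 pairs of gene and site came from only 40 distinct sites, 11 of which lay within 100 kb of more than 1 imprinted gene. When overlapping windows were merged, the 40 sites fell in 6.74 Mb, a density of 5.94 sites per Mb. The merged windows of all protein-coding genes held 4.41 sites per Mb, those of autosomal protein-coding genes 4.60, and the autosomes as a whole 3.30. No interval was computed for these densities, so whether they differed beyond counting error was not tested.

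**Figure D1:**
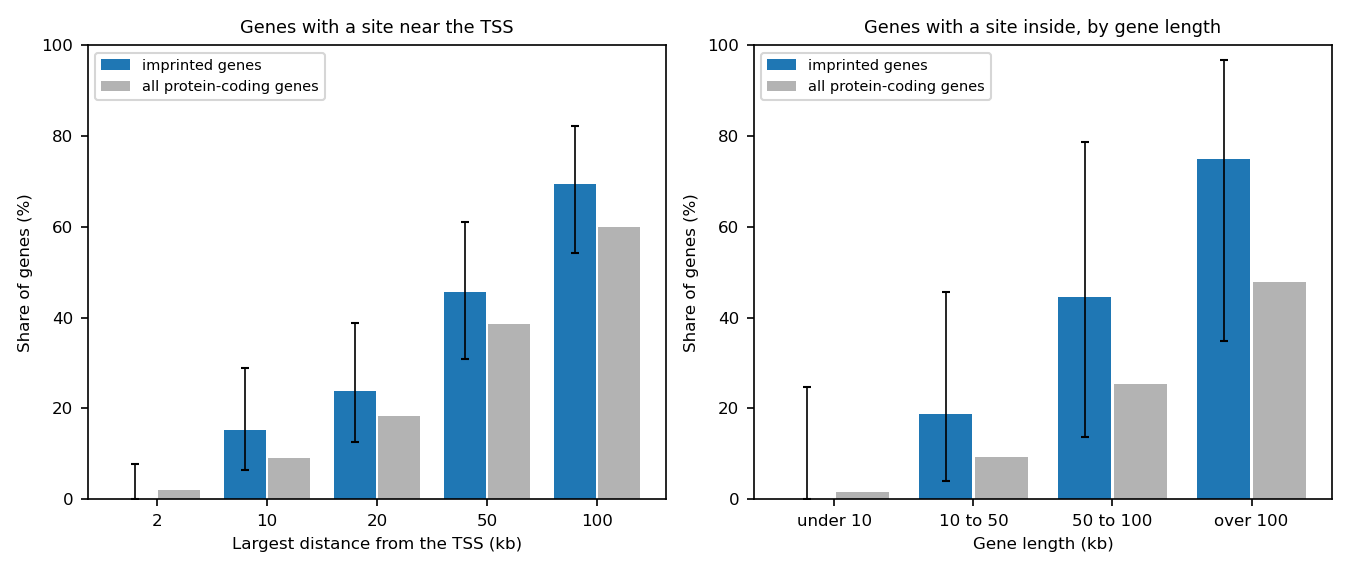
Share of genes (y axis, %) with a Wapal-binding site within a given distance of the TSS (left, x axis in kb) or inside the gene, by gene length (right, x axis in kb), for 46 imprinted genes (blue, bars with exact 95% intervals) and all 22380 protein-coding genes (grey). On the left, the share within 100 kb was 69.6% of imprinted genes and 60.0% of all protein-coding genes; on the right, both shares rise with gene length.

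The distance from the TSS to the edge of the nearest site ran from 2.69 kb at Phlda2 to 949 kb at Snrpn. Its median over imprinted genes was 57.0 kb (95% interval of the median 33.9 to 90.9 kb) and over protein-coding genes 72.5 kb, inside that interval. The nearest site lay upstream of the TSS for 17 genes and downstream for 29. This split was not computed over protein-coding genes, so no preference for a side can be read from it. The 7 genes with a site within 10 kb were Phlda2, Kcnk9, Plagl1, Igf2, Magel2, Sgce and Peg10, and none of those sites had a score over 84.4.

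**Figure D2:**
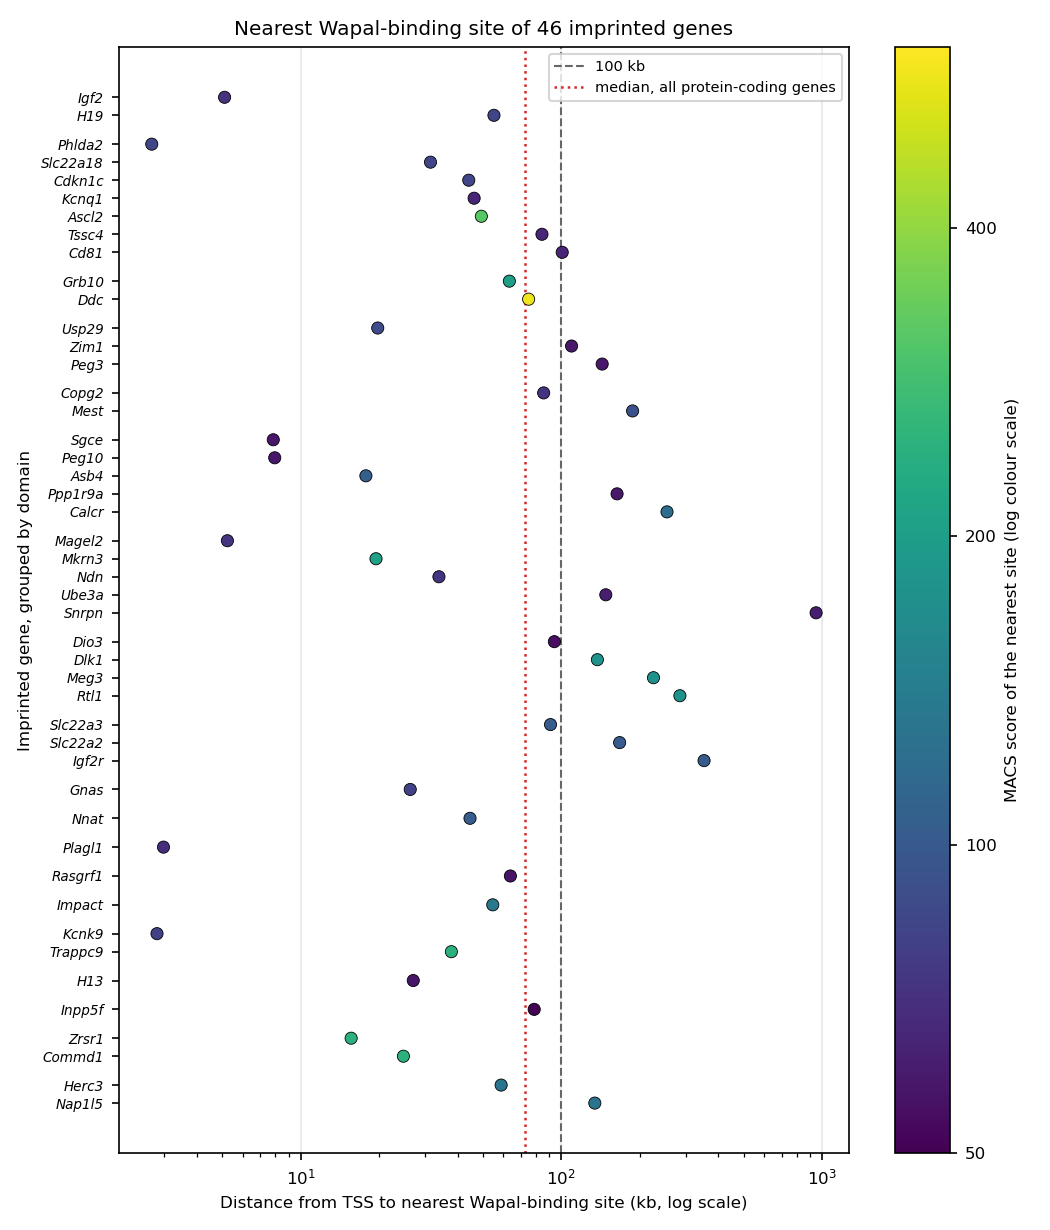
Distance from the TSS of each of the 46 imprinted genes to the edge of its nearest Wapal-binding site (x axis, kb, log scale), with genes grouped by domain on the y axis and points coloured by the MACS score of that site. The points run from 2.69 kb at Phlda2 to 949 kb at Snrpn; the dotted line marks the median of protein-coding genes, 72.5 kb, and the dashed line 100 kb.

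Igf2, which encodes a fetal growth factor and is expressed from the paternal copy, and H19, a maternally expressed noncoding RNA, both lie on the reverse strand of chromosome 7. H19 spans chr7:149761434-149764048 and Igf2 spans chr7:149836673-149852721. No Wapal-binding site lay in the 72.6 kb between them or in either gene. Sites flanked the pair instead. On the Igf2 side, a site at chr7:149857833-149858631 (score 71.1) began 5.11 kb upstream of the Igf2 TSS. It was extragenic and 799 bp wide. A further site at chr7:149922793-149923426 (score 58.9) lay beyond the insulin gene Ins2. On the H19 side, a site at chr7:149708096-149708871 (score 83.2) lay 55.2 kb downstream of the H19 TSS and 9.83 kb from the TSS of Mrpl23, a mitochondrial ribosomal protein gene. The median score of all sites was 81.4, and the site beyond Ins2 scored below the lower quartile of 62.5.

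The flanking sites enclosed both genes in a stretch of 149 kb without a site. Such stretches around protein-coding TSSs had a median of 365 kb and a lower quartile of 182 kb, so this one was short. The H19 upstream region, where the control region of this domain is known to lie, is in the 149 kb stretch. The CTCF core motif was searched on both strands in the 10 kb upstream of the H19 TSS. There were 0 exact matches and 3 with at most 1 mismatch, at 3.77, 7.84 and 9.70 kb from the TSS. Among protein-coding genes, 17.2% had 3 or more such matches in the same window, and the mean was 1.33. With at most 2 mismatches there were 13 matches upstream of H19. At that setting 50.2% of regions as wide as a site and 5 kb from one also held a match. The 10 kb window was not matched to the bounds of the control region. Whether this motif covers the CTCF sites of that region was not tested, so the counts do not show how many it holds. The whole stretch between the flanking sites held 12 matches with at most 1 mismatch and none without mismatches. A region missing from the list was not called at the authors' threshold, and whether Wapal is bound there below it was not tested.

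The Kcnq1ot1 domain begins to the right of Igf2 on chromosome 7. Its genes are Ascl2, a trophoblast transcription factor gene; Cd81, a tetraspanin gene; Tssc4; Kcnq1, which encodes a potassium channel; Cdkn1c, which encodes the cell cycle inhibitor p57; the transporter gene Slc22a18; and Phlda2, a growth-restricting gene of the placenta. Within 100 kb of these 7 genes lay 3 sites, or 5.18 per Mb of merged windows, beside 4.41 for all protein-coding genes. The first, at chr7:150104876-150105802, had a score of 311, which ranked 85 among all sites, and lay in an intron of Th, the tyrosine hydroxylase gene. It was 49.4 kb downstream of the Ascl2 TSS. The second, at chr7:150339471-150340909 (score 64.8), lay in an intron of Kcnq1, 46.3 kb from its TSS. This site was also the nearest to Tssc4, at 84.3 kb, and to Cd81, which at 101 kb fell just outside the window.

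The last site of the domain stood out by its width. It spanned chr7:150691133-150693183 (score 84.4), and only 115 sites of the list (1.38%) were as wide as its 2051 bp. It began 2.69 kb upstream of the Phlda2 TSS, the shortest distance of any imprinted gene. The same site was the nearest to Slc22a18, at 31.5 kb, and to Cdkn1c, at 44.2 kb. Between the second and the last site lay 350 kb without a site, which held most of Kcnq1. The median of such stretches around protein-coding TSSs was 365 kb. The windows of this domain held 10 exact CTCF core motifs, and 0 of them lay in a site (upper bound 30.8%). Of the exact motifs within 100 kb of autosomal protein-coding TSSs 19.9% did, which is inside that bound, so no difference could be shown with 10 motifs.

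The site of highest score among imprinted genes lay in Grb10, which encodes an adaptor protein that restrains insulin signalling and growth. Grb10 spans chr11:11830511-11938686 on the reverse strand. The site at chr11:11872993-11873974 had a score of 562, the 3rd highest of the list, and lay in an intron 64.7 kb downstream of the TSS. A second site, at chr11:11874724-11875470 (score 200), followed after 749 bp. The neighbouring gene Ddc, which encodes an enzyme of dopamine and serotonin synthesis, had a site of its own in an intron at chr11:11720055-11721234 (score 131), 76.8 kb from its TSS. The Ddc site held an exact CTCF core motif, the first Grb10 site a match with 1 mismatch, and the second none closer than 2 mismatches.

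**Figure D3:**
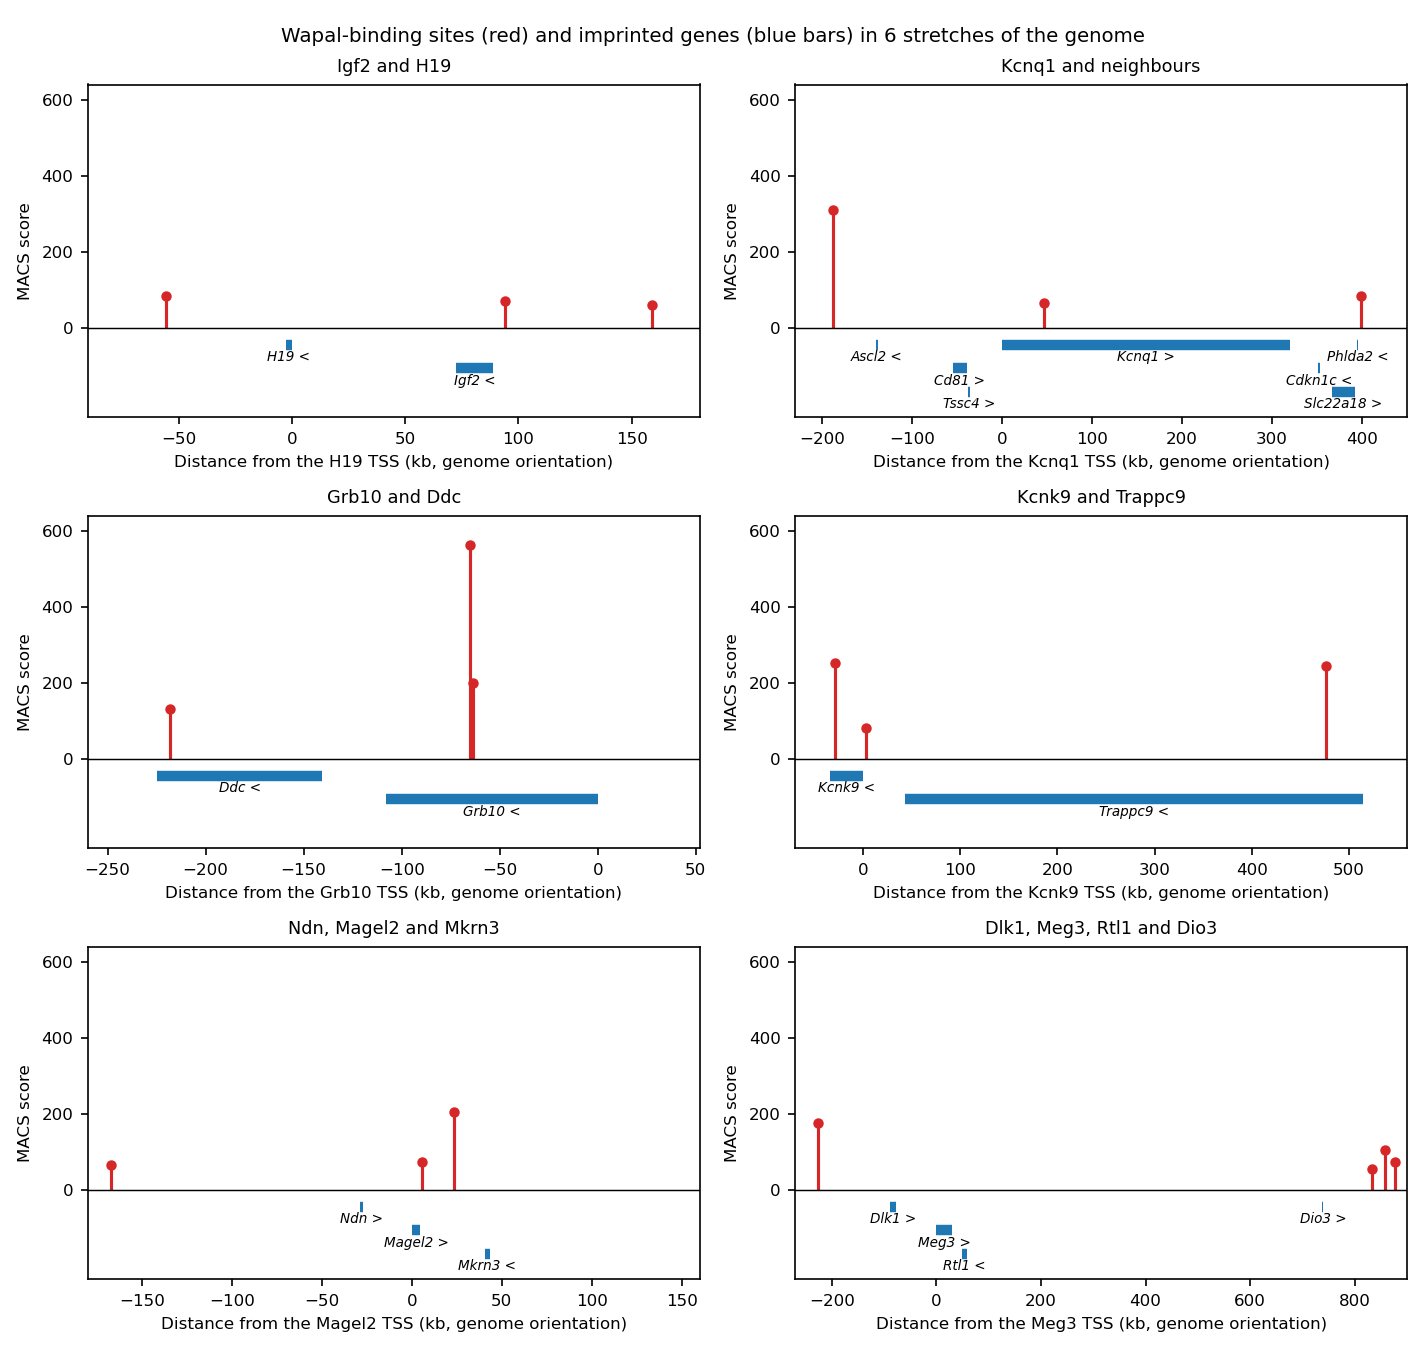
Wapal-binding sites (red, height is the MACS score on the y axis) and imprinted genes (blue bars below the axis, > or < after a name gives the strand) in 6 stretches of the genome, drawn to scale against distance from the TSS of the gene named on each x axis (kb). The Igf2 and H19 panel has no site between the genes, the Grb10 panel holds the site with a score of 562, and the Dlk1 panel has no site between the one left of Dlk1 and the first one right of Dio3.

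Trappc9, which encodes a subunit of a vesicle tethering complex, and Kcnk9, a potassium channel gene expressed from the maternal copy in brain, held sites with the highest scores after those in Grb10 and in the Th intron. A site in an intron of Kcnk9 at chr15:72347184-72348083 had a score of 253 and one in an intron of Trappc9 at chr15:72853122-72853753 had a score of 244. A further site, at chr15:72379523-72380434 (score 79.7), lay 2.81 kb upstream of the Kcnk9 TSS and held an exact core motif. The Kcnk9 TSS thus lay in a stretch of only 31.4 kb between sites, the shortest of any imprinted gene.

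Commd1 and Zrsr1 are nested on chromosome 11, with the paternally expressed Zrsr1 inside an intron of the maternally biased Commd1. Both sites of this domain lay in introns of Commd1. The site at chr11:22856755-22857582 had a score of 243 and the one at chr11:22849870-22850712 a score of 64.1. The first was the nearest to both genes, 15.6 kb upstream of the Zrsr1 TSS and 24.8 kb downstream of that of Commd1. Its core motif match was on the reverse strand and that of the other site on the forward strand.

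The Snrpn-Ube3a domain on chromosome 7, the mouse counterpart of the Prader-Willi and Angelman region, was divided. Ndn, Magel2 and Mkrn3, which are expressed from the paternal copy, shared a site at chr7:69527106-69527936 (score 73.7) and one at chr7:69544871-69545570 (score 206). The first lay 5.24 kb downstream of the Magel2 TSS and 33.9 kb from that of Ndn, and the second 19.5 kb from that of Mkrn3. Both held an exact core motif. At the other end, Snrpn, which encodes a splicing protein, and Ube3a, a ubiquitin ligase gene silenced on the paternal copy in neurons, had no site within 100 kb. Their TSSs lay in the same stretch of 2988 kb without a site, and the nearest site (score 61.9) was 148 kb upstream of Ube3a and 949 kb from Snrpn.

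Long stretches without a site also held the genes of the Dlk1-Dio3 and Igf2r domains. Dlk1, a Notch-related ligand gene, Meg3, a maternally expressed noncoding RNA, the retrotransposon-derived Rtl1 and the deiodinase gene Dio3 all lay in 1 stretch of 1058 kb. Dio3 had a site (score 54.8) 94.1 kb downstream of its TSS, and the other 3 genes had their nearest site (score 177) at 138 kb for Dlk1, 226 kb for Meg3 and 285 kb for Rtl1. The windows of this domain held 9 exact core motifs, of which 1 lay in a site.

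Igf2r, which encodes a receptor that clears Igf2, and the transporter genes Slc22a2 and Slc22a3 lay in a stretch of 1056 kb. A site at chr17:12608882-12609633 (score 102), in an intron of the plasminogen gene Plg, was the nearest to all 3 genes. It was 90.9 kb from the Slc22a3 TSS, 167 kb from that of Slc22a2 and 353 kb from that of Igf2r. In all, 10 of the 46 imprinted genes, from 4 stretches, had the TSS in a stretch of over 1 Mb without a site, beside 15.8% of protein-coding genes. No interval was computed for this count. The median stretch between sites around the TSS was 350 kb for imprinted genes and 365 kb for protein-coding genes. No site within 200 kb was found for 5 genes (10.9%, 95% interval 3.62 to 23.6%), Snrpn, Igf2r, Rtl1, Calcr and Meg3, beside 20.6% of protein-coding genes. No site within 100 kb was found for 14 genes (30.4% beside 40.0%).

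The Peg10-Sgce domain on chromosome 6 spread over 1747 kb. Peg10, a retrotransposon-derived gene needed in the placenta, and Sgce, a sarcoglycan gene, start close together on opposite strands. A site in an intron of Sgce at chr6:4688464-4689346 (score 58.0) was 7.86 kb from the Sgce TSS and 7.96 kb from that of Peg10, and its closest match to the core motif had 3 mismatches. Asb4 held 2 sites in introns, with scores of 105 and 146, the nearer one 17.8 kb from its TSS. Ppp1r9a, a gene for an actin-binding protein, held a site with a score of 144, but 207 kb from its TSS. Calcr, the calcitonin receptor gene, had its nearest site (score 120) at 254 kb.

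In the Peg3 domain, Usp29 had a site with an exact core motif 19.8 kb upstream of its annotated TSS (score 88.4), and the annotated record of this gene is only 2.61 kb long. A second site, with a score of 53.1, also lay within 100 kb of it. Peg3, a zinc-finger gene expressed from the paternal copy, and Zim1 had their nearest site (score 58.4) at 143 and 109.5 kb. In the Mest domain, Copg2 had a site (score 71.8) 85.6 kb upstream and Mest none closer than 188 kb. At Nap1l5 and Herc3, 2 sites only 577 bp apart (scores 153 and 130) lay 58.8 kb or more upstream of Herc3, and Nap1l5 had none closer than 134 kb.

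The domains with 1 gene differed in the position of their sites. Plagl1, a zinc-finger growth regulator gene, had 3 sites upstream with scores of 145, 76.7 and 69.6, the last 2.98 kb from the TSS. Gnas, a complex gene for the stimulatory G protein alpha subunit, held 2 intronic sites 489 bp apart (scores 80.0 and 75.8), 26.3 kb from its outermost TSS. H13 had sites with scores of 57.8, 71.8 and 111, the first in an intron and 27.1 kb from the TSS. Nnat, a neuronal membrane protein gene, had 2 sites downstream, of scores 103 and 148, the nearer at 44.7 kb.

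Single sites were found for the other 3 genes of this kind. Rasgrf1, an exchange factor gene, held an intronic site with a score of 57.2 at 63.8 kb. Inpp5f, a phosphatase gene, held one with a score of 50.4, near the calling limit, at 78.7 kb. Impact had a site with a score of 137 at 54.6 kb.

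Sites inside genes were counted next. At least 1 site lay in 13 of the 46 imprinted genes, or 28.3% (95% interval 16.0 to 43.5%), whereas 12.1% of protein-coding genes held one, below that interval. The imprinted genes were also longer, with a median of 28.6 kb beside 15.4 kb. The comparison was therefore repeated within classes of length. In genes under 10 kb, 0 of 13 imprinted genes held a site, beside 1.60%. From 10 to 50 kb it was 3 of 16 (18.8% beside 9.31%), from 50 to 100 kb 4 of 9 (44.4% beside 25.4%), and over 100 kb 6 of 8 (75.0% beside 47.8%). In the 3 classes from 10 kb upward the share was higher for imprinted genes, but with 8 to 16 imprinted genes in each the background lay inside their 95% interval. All 17 sites in imprinted genes had their centre in an intron.

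Several intronic sites lay near the start of a shorter annotated transcript of the same gene. When distance was taken to any annotated transcript, 3 genes had a site within 2 kb (6.52%, 95% interval 1.37 to 17.9%, beside 3.30% of protein-coding genes). Within 100 kb there were 34 (73.9%, 95% interval 58.9 to 85.7%, beside 62.2%). Within 10 kb there were the 14 genes given above, beside 7 from the start of the gene record. The intronic Inpp5f site lay 1.57 kb from a protein-coding transcript that starts at position 135832003 of chromosome 7. The Grb10 site with a score of 562 lay 2.35 kb from a protein-coding transcript that starts at 11870645 on chromosome 11, and the Ppp1r9a site 2.52 kb from one that starts at 5063547 on chromosome 6. The Commd1 site with a score of 243 contained the start of a transcript annotated as a retained intron, and the Ddc site was 1.69 kb from a noncoding transcript. Imprinted genes often have several promoters, and a gene with more annotated transcripts has more chances to lie near a site, which was not tested.

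Scores of the 40 sites ran from 50.4 in Inpp5f to 562 in Grb10. Their median of 86.4 was close to that of all sites, 81.4. The upper end was heavier. A score of at least 200 was found for 7 sites, or 17.5% (95% interval 7.34 to 32.8%), beside 5.29% of all sites. These 7 lay in 5 domains, and the pair in Grb10 lay 749 bp apart. A score of at least 100 was found for 19 sites, or 47.5% (95% interval 31.5 to 63.9%), beside 34.6% of all sites. With only such sites kept, 19 genes (41.3%) had one within 100 kb of the TSS, beside 27.8% of protein-coding genes, and 7 (15.2%) held one, beside 4.32%. No interval was computed for these shares, and the count inside genes was not repeated by gene length. The 7 domains that then had none within 100 kb were Igf2-H19, Peg3, Mest, Dlk1-Dio3, Gnas, Rasgrf1 and Inpp5f.

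**Figure D4:**
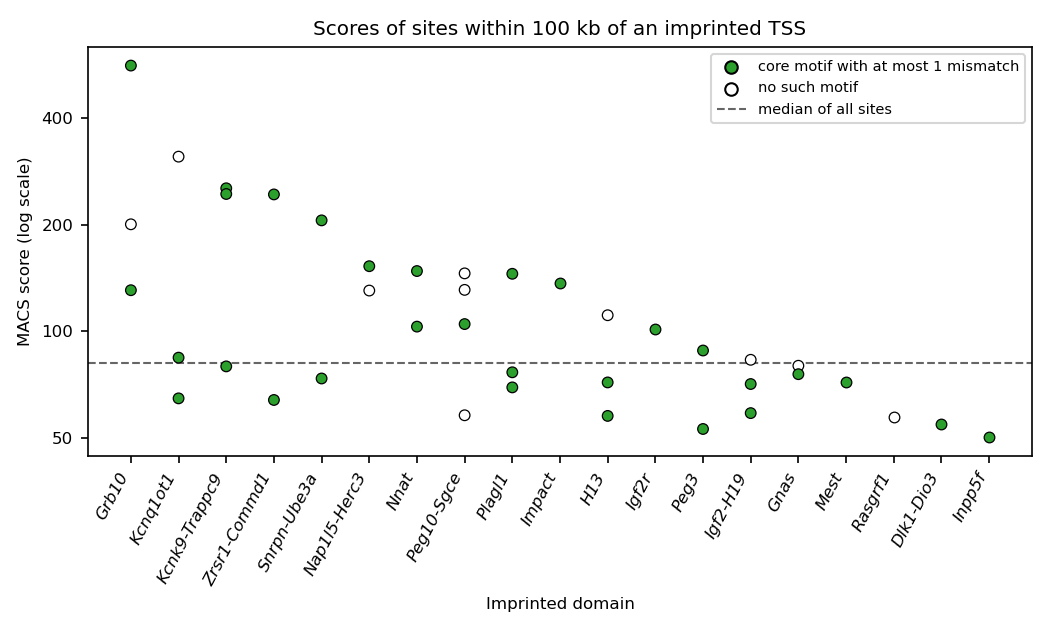
MACS score (y axis, log scale) of each of the 40 Wapal-binding sites within 100 kb of the TSS of an imprinted gene, by domain (x axis), filled where the site held a core motif match with 0 or 1 mismatches. Scores run from 50.4 in the Inpp5f domain to 562 in the Grb10 domain; the dashed line is the median of all sites, 81.4.

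The sequence of the sites was examined next. A match to the core motif with 0 or 1 mismatches was found in 30 of the 40 sites, or 75.0% (95% interval 58.8 to 87.3%), beside 74.5% of all sites. Regions of the same width 5 kb away held it in 4 of 40 cases, beside 10.3% over the whole list. The exact motif was in 13 sites, or 32.5%, beside 28.3% of all sites and 0.841% of regions 5 kb away. With at most 2 mismatches it was in 97.5% of the sites near imprinted genes, beside 96.5% of all sites and 50.2% of regions 5 kb away. In the 30 sites the closest match was on the forward strand in 16 and on the reverse strand in 14.

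The width had a median of 832 bp near imprinted genes and 812 bp over all sites. The GC content had medians of 44.8 and 44.3%, and the ratio of observed to expected CpG 0.259 and 0.230. By their centre, 22 of the 40 sites were extragenic (55.0% beside 57.7%), 18 were intronic (45.0% beside 37.8%) and 0 were exonic (upper bound 8.81%, beside 4.46%). Among protein-coding genes, the TSS nearest to the site was that of an imprinted gene of the list for 22 of the 40 sites and that of another gene for the other 18. The 40 sites were selected by their distance to these genes. No such share was computed for other genes, so nothing particular to imprinted genes can be read from it. The density of motifs was compared without an interval, so whether it differed beyond counting error was not tested. The merged windows of imprinted genes held 55 exact core motifs, or 8.16 per Mb, of which 13 lay in a site (23.6%, 95% interval 13.2 to 37.0%). Windows of autosomal protein-coding genes had 6.79 exact motifs per Mb, with 19.9% in a site, and the autosomes as a whole 4.95 per Mb, with 19.3%.

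Another list of 49 genes reported to be imprinted, none of them among the 46, was measured the same way, and 41 of its symbols were located. Within 100 kb of the TSS, 29 of the 41 had a site (70.7%, beside 60.0% of protein-coding genes). The median distance was 67.2 kb, beside 72.5 kb for protein-coding genes, and 5 held a site (12.2%, beside 12.1%). No interval was computed for this list, so whether it differed from protein-coding genes was not tested. The 2 lists are not independent, since 17 of the 39 sites of the second list were also within 100 kb of the first. A site lay within 10 kb of the TSS for 3 of the 41, where 9.12% of protein-coding genes had one. These were Osbpl5, Pde10a and Mcts2, at 7.94, 8.25 and 9.37 kb. Osbpl5 and Pde10a each held 2 sites, and Th, Phactr2 and Atp10a each held 1. A few more genes of this second list, from known domains, were picked after their values were seen. The noncoding RNA Airn, which starts in an intron of Igf2r and silences Igf2r on the paternal copy, had its nearest site at 325 kb, and Rian and Mirg of the Dlk1-Dio3 domain at 289 and 419.7 kb.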

How the data were processed

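Biotin-mediated ChIP-seq was performed by the authors on 2 FB Wapal clones, BirA-expressing ESCs and input. Reads were aligned to mm9 with Bowtie, keeping uniquely aligned reads, and regions were called against input with MACS 1.4.2 (p of 1e-05). The value deposited for each region is the authors' MACS score, which is not normalized between lists and was compared only within the FB Wapal list. The rule by which both clones were joined is not given in the sources used here.

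Genes came from GENCODE M1 on NCBIM37, the assembly of mm9. A TSS is the 5′ end of the gene record, and distances run to the nearest edge of a site. A site is in a gene when it shares at least 1 bp with it. The CTCF core motif (12 bases, some ambiguous) was searched on both strands with at most 1 mismatch.

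The genes and lists were chosen with earlier results of these data known, so no test was run over them. Every imprinted gene was named. Sites were described in full for the 5 highest scores, for distances within 10 kb, and in the Igf2-H19 and Kcnq1ot1 domains. Others, the autosomal background, the H19 upstream search and the 2 and 10 kb distances to any transcript were chosen after values were seen. Simulated data returned 200 of 200 planted distances and motifs. Python 3.11.15, numpy 2.4.6, pandas 2.3.3, scipy 1.17.1, pysam 0.24.0 and matplotlib 3.10.9 were used. Expression, histone marks and CTCF or cohesin ChIP-seq were not analysed here.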

Additional observations from a re-analysis of the deposited data

How the results depend on the processing

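No paired analysis was possible because both clones are joined in 1 list, so leaving out a replicate was not possible either. Of 54 recomputed values, 39 stayed within 1.5 times (counts and densities) or inside the 95% interval of the main value (medians and shares). Keeping BirA regions, removing sites within 1 kb of one, measuring to the centre of a site, a window of 200 kb and using protein-coding genes alone moved none of the values they were applied to beyond these limits. The settings for BirA regions could not change values within 100 kb of the TSS, since no BirA region lay that close to an imprinted gene. The 200 kb window held 60 sites beside 40 in the main result, exactly at the limit. Using any transcript TSS, chosen for these distances after seeing the data, raised the genes with a site within 2 kb from 0 to 3 and within 10 kb from 7 to 14. It left the count within 100 kb, the median distance, the number of sites and their density within the limits.

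A score of at least 100 left 19 genes with a site within 100 kb, 7 genes with a site inside, a median distance of 137 kb (234 kb for protein-coding genes), 19 distinct sites, 2.82 sites per Mb (1.53 for protein-coding genes) and a median score of 146, which follows from the shorter list. A window of 20 kb left 11 genes and 10 sites, and 50 kb left 21 genes and 20 sites, as smaller windows must hold fewer. Of the 10 sites in the 20 kb windows 90.0% held the core motif, beside 73.3% in such windows of all protein-coding genes. No interval was computed for that share of 10 sites. The share with the motif was 32.5% for exact matches and 97.5% with 2 mismatches. The lists give no read depth, so how far a missing site reflects the calling threshold was not tested.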
